A study of Strongylocentrotus intermedius with 6 samples.

Results

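NLRP-type and other NACHT receptor genes of sea urchin coelomocytes, which are immune cells that circulate in the body cavity, are described here across 6 RNA-seq libraries of Strongylocentrotus intermedius. Members were the coding gene models whose deposited description named a NACHT, LRR and PYD protein, a NACHT domain, a NACHT and WD repeat protein or a nucleotide-binding oligomerization domain protein. NLRC-type descriptions (NLR family CARD or NLRC proteins) were left out. This gave 132 of the 22969 coding models, within a table of 30559 gene models. The rule read descriptions only, but it was chosen with earlier results of these data known. By description, 80 were of the NLRP1 type (all with the symbol nlrp1), 32 of NLRP3, 5 of NLRP10, 8 of NWD1 (NACHT and WD repeats), 2 of NOD2, and 1 each of NLRP4, NLRP9, NLRP9B, NLRP12 and NWD2.

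Both groups were coelomocytes labelled LD, which conventionally means alternating light and dark. They differed in zeitgeber time, counted by convention from lights-on, with 3 libraries labelled ZT12 and 3 labelled ZT0. The question put to each receptor gene is whether its transcript level differed between the times. The sources used here do not give strain, age, hours of light or the animals behind each library, so p-values measure the spread between these libraries, which may be technical.

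NACHT proteins carry a nucleotide-binding module that lets the protein self-assemble once a ligand or a damage signal releases it. In vertebrates many of them, the NOD-like receptors, sense microbial products or cell damage in the cytosol through C-terminal leucine-rich repeats (LRR). In mammals NLRP3 uses an N-terminal pyrin domain (PYD) to recruit the adapter ASC and, through it, caspase-1 into an inflammasome. Mammalian NLRP1 recruits through a C-terminal caspase recruitment domain instead, and not every NLRP protein forms an inflammasome. In mammals NOD2 senses a fragment of bacterial peptidoglycan and signals through the kinase RIPK2 to NF-kB. Sea urchin genomes are known for a large expansion of NOD-like receptor genes. The type names used here are those of the authors' descriptions, and they do not show that a sea urchin protein acts like the mammalian one.

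Total counts per library were 20229918 to 24368884. The members took 0.1255, 0.116 and 0.1805% of counts in ZT12 libraries 1, 2 and 3, against 0.1072, 0.114 and 0.1113% in the ZT0 ones. Levels below are CPM (counts scaled to equal library size, with edgeR's TMM factors) or, between genes, the authors' FPKM, which also divides by gene length. A count of 0 in a library allows up to 0.123 to 0.151 CPM (3 counts), counting error only. All 6 coelomocyte markers found were tested and 0 passed by edgeR, with 1 higher and 1 lower at an unadjusted p under 0.05. The cytoskeletal actin CYIA was at 19330 to 23270 CPM at ZT12 and 22070 to 32490 CPM at ZT0, and polyketide synthase 1, a pigment cell enzyme, was at 934.2 to 1426 and 1024 to 1120 CPM. A complement C3 gene, ZJQ009111, had 1247, 174.8 and 768.6 CPM in ZT12 libraries 1, 2 and 3, against 88.91, 119.5 and 253.8 CPM in the ZT0 ones (log2 fold change 2.24, adjusted p = 0.505 by edgeR), and was the 1 marker of these 6 that DESeq2 called (adjusted p = 0.0354). A second C3 gene, ZJQ009205, had 64.48, 21.43 and 46.29 CPM at ZT12 against 14.74, 31.23 and 23.11 CPM at ZT0, and the remaining C3 gene, ZJQ009390, was at 535.1 to 1038 CPM at ZT12 against 612.2 to 1069 CPM at ZT0. Polyketide synthase 37 (ZJQ017623) was lower in every ZT12 library, at 0, 0.19 and 0.594 CPM, against 1.363, 4.015 and 3.479 CPM in the ZT0 ones (log2 fold change -3.53, adjusted p = 0.287 by edgeR). No model was described as amassin, an aggregation protein of coelomocytes. The 18 skeleton-forming markers summed to 126 ± 51 CPM at ZT12, against 589 ± 225 CPM at ZT0 (SD, n = 3 each). Of the 11 tested, 6 fell and 0 rose by edgeR's test, where 0.114% of all genes tested fell. Log2 fold changes were below 0 in 8 of the 11 and above 0 in 3. At an unadjusted p under 0.05, 8 were lower and 1 higher. The 67 gut markers summed to 3690 to 4010 CPM at ZT12 and 3610 to 4810 CPM at ZT0. Most of this was the trypsin-1 gene ZJQ009370 (3209 to 3446 and 3276 to 4400 CPM). In every library 4 gut markers were at 0, 2 of these pancreatic lipase-related genes, 1 an alpha-amylase and 1 a carboxypeptidase. Of the 32 tested, 27 were above 0 (median log2 fold change 1.68) and 0 passed by edgeR. At an unadjusted p under 0.05, 13 were higher and 1 lower. The tested gut markers had a median log2 deviation from each gene's mean of 0.9, -0.33 and 0.48 in ZT12 libraries 1, 2 and 3, against -0.6, -0.73 and -0.1 in the ZT0 ones. Summed muscle markers were at 83.6 to 156 CPM at ZT12 and 68.7 to 86.3 CPM at ZT0, and the ranges of germ cell, nerve and cilia markers also overlapped. The part of these markers in the receptor results was not tested. In such bulk samples fewer cells of a type and less RNA per cell cannot be told apart.

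One receptor gene, the nlrp1 gene ZJQ022614, was nearly silent at ZT0 and well expressed at ZT12. It had 74.46, 21.71 and 29.79 CPM in ZT12 libraries 1, 2 and 3, against 0.7573, 0 and 0.1491 CPM in ZT0 libraries 1, 2 and 3. Every ZT12 library lay far above every ZT0 library, although the ZT12 libraries differed among themselves, with library 1 the highest. These levels rest on 1820, 457 and 652 reads at ZT12 and on 15, 0 and 3 reads at ZT0. ZJQ022614 rose by 7.17 on the log2 scale (SE 0.84, edgeR adjusted p = 0.0145). On the FPKM scale it averaged 26.4 ± 17 at ZT12 and 0.169 ± 0.225 at ZT0 (SD, n = 3 each), and it was the fourth most abundant of the 132 genes per length. The gene length implied by its counts and FPKM was 1635 bp, against a median of 2595 bp over the members. Its call ended on leaving out any single library other than ZT12 library 2 (adjusted p by edgeR from 0.0595 to 0.156, log2 fold change from 6.48 to 9.14), and also with edgeR legacy = TRUE (adjusted p = 0.178) and limma-voom (adjusted p = 0.766). DESeq2 called it (adjusted p = 9.57e-05).

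**Figure D1:**
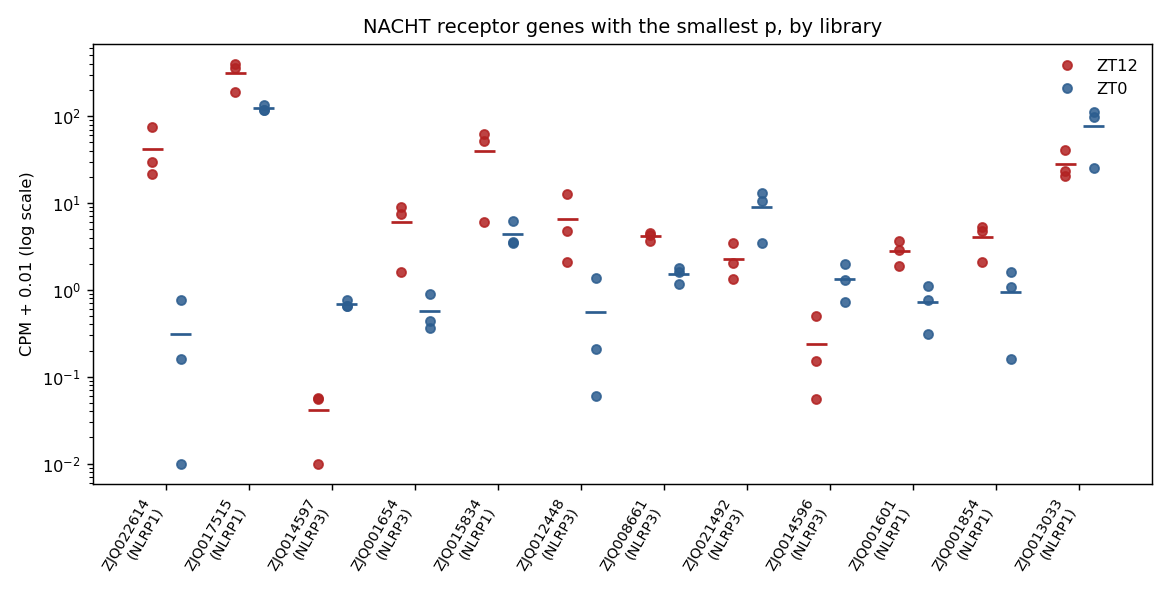
CPM (log scale, with 0.01 added) of the 12 NACHT receptor genes with the smallest p, in order of p from left to right. Points are libraries (ZT12 left of ZT0 for each gene) and bars are means of 3. ZJQ022614, at 21.71 to 74.46 CPM at ZT12 and 0 to 0.7573 CPM at ZT0, has the widest gap between the times.

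Among the members as a group, 95 passed the filter on low counts and were tested, and 37 did not. Of the 95, ZJQ022614 was the only one that rose by edgeR's test, 0 fell (7 lower at an unadjusted p under 0.05) and 94 did not pass. Over all 18456 genes tested, 0.13% were called (0.0163% rose and 0.114% fell). Log2 fold changes of the tested members (ZT12 minus ZT0) had a median of 0.13, with 57 above and 38 below 0. Over all genes tested the median was 0 and 50.1% were above 0. Small unadjusted p-values were frequent, that of ZJQ022614 among them. An unadjusted p under 0.05 was found for 22 of the 95 (15 higher, 7 lower), or 23.2%, against 7.31% of all genes tested (3.44% higher, 3.87% lower). Of the 15 higher, 6 lay in a single stretch of close identifiers, and of the 7 lower, 3 lay in another. Members of such a stretch, described below, are not independent. In 9 of the 95 all ZT12 libraries lay above all ZT0 libraries and in 7 all lay below, where 5.84 and 6.33% of all genes tested did so.

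A gene can pass the filter through the group where it is high. Of the 95 tested members, 59 were at or above the filter's 0.46 CPM in all 6 libraries. A further 18 were at or above it in all 3 ZT12 libraries but not all ZT0 libraries, and 7 the other way round. Of these 7, 1 (ZJQ014597) was below it in every ZT12 library, and so was tested through ZT0 alone. Shares of tested members are therefore a description of the genes that passed, not of the family. DESeq2 called 5 members higher and 0 lower among those with an adjusted p, where over all genes it called 1.33% (0.67% higher and 0.66% lower). These 5 were ZJQ022614, ZJQ017515, ZJQ015834, ZJQ001654 and ZJQ012448.

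**Figure D2:**
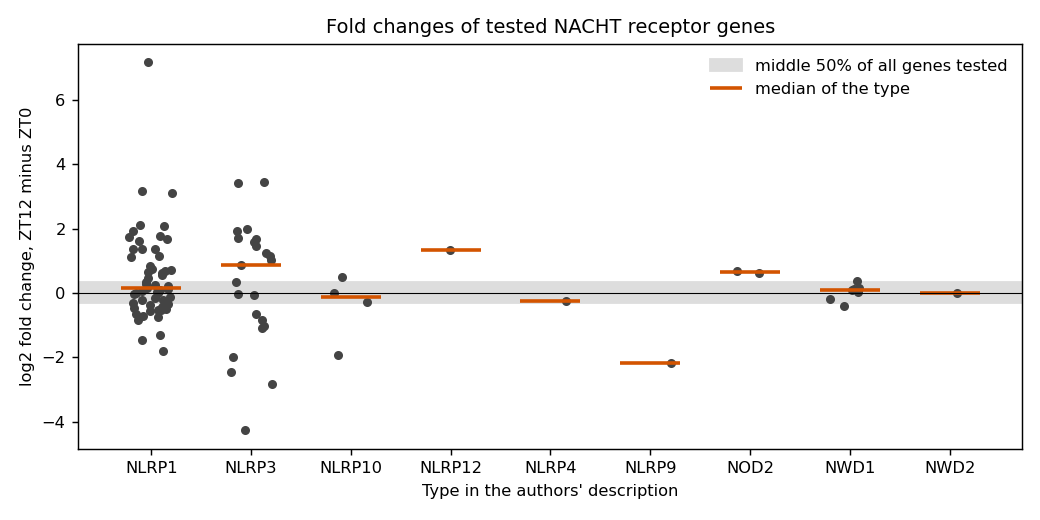
Log2 fold change (ZT12 minus ZT0) of the 95 tested NACHT receptor genes by the type in the authors' description. Points are genes, orange bars are medians, and the grey band holds the middle 50% of all genes tested (-0.3 to 0.33). NLRP1-type genes (-1.8 to 7.17) and NLRP3-type genes (-4.27 to 3.46) spread well beyond the band on both sides, and the 7 tested NWD1 genes stay between -0.41 and 0.37. The gene at -4.27, ZJQ014597, was tested through ZT0 alone.

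Of the NLRP1-type genes, 55 of 80 were tested, 1 rose and 54 did not pass, with a median log2 fold change of 0.15. In mammals NLRP1 is a sensor that is cut by proteases of pathogens. The most abundant member of all was the NLRP1-type gene ZJQ017515. It had 361.3, 189.6 and 398.1 CPM in ZT12 libraries 1, 2 and 3, against 118.3, 116.4 and 134.1 CPM in ZT0 libraries 1, 2 and 3. The times did not overlap, and the ZT0 libraries lay close together while ZT12 library 2 was the nearest of the ZT12 libraries to them. Its log2 fold change was 1.36 (SE 0.28, edgeR adjusted p = 0.228), which did not pass, and DESeq2 called it (adjusted p = 0.00625). Alone it made up 28.9, 17 and 23.7% of the members' summed CPM in the ZT12 libraries, against 10.1, 10.6 and 11.1% in the ZT0 ones. Summed over all 132 genes the level was 1350 ± 293 CPM at ZT12, against 1160 ± 59.5 CPM at ZT0 (SD, n = 3 each). Without ZJQ017515 the sums were 1030 ± 215 CPM at ZT12 against 1040 ± 51.7 CPM at ZT0.

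Among the other NLRP1-type genes, ZJQ015834 had 51.71, 6.081 and 62.15 CPM in ZT12 libraries 1, 2 and 3, against 3.433, 6.151 and 3.579 CPM in ZT0 libraries 1, 2 and 3. ZT12 library 2 lay among the ZT0 libraries, and the log2 fold change of 3.18 (SE 0.78) did not pass (edgeR adjusted p = 0.329), though DESeq2 called it (adjusted p = 0.00119). Leaving out ZT12 library 2, the one among the ZT0 values, edgeR called it (log2 fold change 3.68, adjusted p = 0.0338). Without any other single library it did not pass (edgeR adjusted p from 0.477 to 0.699). Among the ZT12 libraries, library 2 was the lowest for ZJQ015834, ZJQ017515 and ZJQ022614. It was also the lowest for the tested gut markers and the C3 genes ZJQ009111 and ZJQ009205, given above. For polyketide synthase 1 libraries 2 and 3 were nearly level (934.2 and 944.4 CPM), below library 1 (1426 CPM). Other markers did not follow, with the C3 gene ZJQ009390 and polyketide synthase 37 lowest in library 1 and CYIA in library 3. Nor did the members ZJQ001654, lowest in library 3, and ZJQ012448, lowest in library 1. The part of these markers in the receptors' values was not tested. ZJQ001854 had 4.746, 2.09 and 5.255 CPM at ZT12 against 1.06, 1.581 and 0.1491 CPM at ZT0 (log2 fold change 2.08). ZJQ001601 had 3.6, 1.853 and 2.879 CPM at ZT12 against 0.7573, 1.111 and 0.2982 CPM at ZT0 (log2 fold change 1.92). In both genes the times did not overlap, and neither passed (edgeR adjusted p = 0.542 and 0.498). In the other direction, ZJQ013033 had 23.07, 41.19 and 20.29 CPM at ZT12 against 110.5, 25.33 and 97.37 CPM at ZT0. ZT0 library 2 lay within the ZT12 range, and the log2 fold change of -1.46 did not pass (edgeR adjusted p = 0.612).

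Of the NLRP3-type genes, 23 of 32 were tested and 0 passed edgeR's test (DESeq2 called 2 higher), with 13 above and 10 below 0 and a median log2 fold change of 0.86. In mammals NLRP3 responds to many kinds of cell stress. An unadjusted p under 0.05 was found for 10 of the 23, 7 higher and 3 lower. ZJQ001654 had 9.042, 7.364 and 1.599 CPM in ZT12 libraries 1, 2 and 3, against 0.3534, 0.4272 and 0.8946 CPM in ZT0 libraries 1, 2 and 3. Its times did not overlap, with ZT12 library 3 the closest to ZT0 (difference 3.43 ± 0.81 log2 units, SE; adjusted p = 0.298 by edgeR, DESeq2 adjusted p = 0.00176).

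ZJQ012448 had 2.087, 4.703 and 12.57 CPM at ZT12 against 0.0505, 1.367 and 0.1988 CPM at ZT0 (difference 3.46 ± 0.98 log2 units, SE; adjusted p = 0.441 by edgeR, DESeq2 adjusted p = 0.0493). Libraries of the same time differed widely in it, and the times still did not overlap. ZJQ008661 was steadier, with 4.255, 3.658 and 4.478 CPM at ZT12 against 1.161, 1.581 and 1.789 CPM at ZT0 (log2 fold change 1.45, edgeR adjusted p = 0.472). Lower at ZT12 without passing the test were 3 further NLRP3-type genes. ZJQ021492 had 2.046, 3.421 and 1.325 CPM at ZT12 against 10.4, 13.03 and 3.479 CPM at ZT0 (log2 fold change -2, edgeR adjusted p = 0.481). ZJQ014596 had 0.4909, 0.1425 and 0.0457 CPM at ZT12 against 0.7068, 1.282 and 1.988 CPM at ZT0 (log2 fold change -2.46, edgeR adjusted p = 0.498). Both were lower in every ZT12 library than in any ZT0 library, ZJQ021492 by a narrow margin. ZJQ014597 rested on 0, 1 and 1 reads at ZT12 against 15, 15 and 13 reads at ZT0. The ratio of its summed levels, ZT12 over ZT0, was 0.0437 (95% exact interval 0.00512 to 0.168, counting error only), and it did not pass (edgeR adjusted p = 0.277). It reached the filter's 0.46 CPM at ZT0 only, so it was tested through the time where it was high.

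The remaining NLRP types held few genes. Of the NLRP10 type 4 of 5 were tested, with log2 fold changes of -1.92 to 0.5. By edgeR and by DESeq2 0 passed, and 1 had an unadjusted p under 0.05, lower. NLRP10 lacks leucine-rich repeats in mammals. The single NLRP12-type gene, ZJQ001637, had 2.373, 3.421 and 1.782 CPM at ZT12 against 1.616, 1.025 and 0.3479 CPM at ZT0 (log2 fold change 1.33, edgeR adjusted p = 0.698), without overlap. The single NLRP9-type gene, ZJQ014563, lay the other way, with 0, 0.9977 and 0.3199 CPM at ZT12 against 1.616, 1.751 and 2.336 CPM at ZT0 (log2 fold change -2.16, edgeR adjusted p = 0.614), also without overlap. The NLRP4-type gene ZJQ001983 had 8.182, 5.178 and 28.61 CPM at ZT12 against 19.34, 14.99 and 15.41 CPM at ZT0. Its ZT12 libraries lay on both sides of the ZT0 libraries, and the log2 fold change of -0.25 turned to 0.05 without ZT12 library 1 and to 0.15 without ZT12 library 2. The NLRP9B-type gene was not tested, with a mean of 0.638 ± 0.805 CPM at ZT12 against 0.268 ± 0.204 CPM at ZT0 (SD, n = 3 each).

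The 2 NOD2-type genes and the WD-repeat genes did not pass the test. ZJQ021579, a NOD2-type gene, had 0.6137, 2.328 and 2.011 CPM at ZT12 against 0.6059, 1.709 and 0.7455 CPM at ZT0 (difference 0.63 ± 0.67 log2 units, SE; adjusted p = 0.888 by edgeR). The other NOD2-type gene, ZJQ021580, stayed under 0.7 CPM in every library (difference 0.67 ± 0.94 log2 units, SE; adjusted p = 0.918 by edgeR). In NWD1 and NWD2 proteins WD repeats take the place of the leucine-rich repeats. The most abundant NWD1 gene, ZJQ016880, had 93.98, 101.5 and 118.4 CPM at ZT12 against 134.2, 122.6 and 100.7 CPM at ZT0 (difference -0.19 ± 0.19 log2 units, SE; adjusted p = 0.883 by edgeR). Its SE was the smallest of the 95 tested members, and its times overlapped. The NWD2 gene ZJQ021873 had 4.419, 1.093 and 5.712 CPM at ZT12 against 2.979, 6.493 and 1.74 CPM at ZT0 (difference -0.01 ± 0.68 log2 units, SE; adjusted p = 0.998 by edgeR).

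Per length, most NACHT receptor genes were expressed at low levels, and a few carried most of the reads. The mean FPKM over 6 libraries was above 10 in 10 of the 132 genes, above 1 in 65 and below 0.1 in 22, with a median of 0.964 against 1.42 over all coding models. Reads were found in all 6 libraries for 96 members, in some libraries for 35 and in none for 1. The 10 most abundant members by CPM made up 54.3% of the members' summed CPM. The mean FPKM of the leading gene, ZJQ017515, was 69.2 ± 25 at ZT12 and 24.7 ± 1.68 at ZT0 (SD, n = 3 each). Next in order came ZJQ022639, with 15.9 ± 14.1 FPKM at ZT12 and 15 ± 10.1 FPKM at ZT0, and ZJQ002079, with 12.9 ± 7.03 and 16.6 ± 6.17 FPKM. After ZJQ022614, given above, followed the NLRP3-type gene ZJQ008659 at 10 ± 3.85 and 14.3 ± 4.21 FPKM and the NWD1 gene ZJQ016880 at 11.4 ± 1.77 and 12 ± 2 FPKM. The NLRP1-type genes ZJQ019973, at 9.42 ± 1.91 FPKM at ZT12 and 12.7 ± 1.45 FPKM at ZT0, and ZJQ001999, at 14.6 ± 16.5 and 7.31 ± 4.72 FPKM, completed the first 8. Apart from ZJQ017515, the overall means of these 8 genes lay within 10.97 to 15.44 FPKM. That range is smaller than the SD of ZJQ022639, ZJQ002079 or ZJQ001999 within a time, so their order is not firm.

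**Figure D3:**
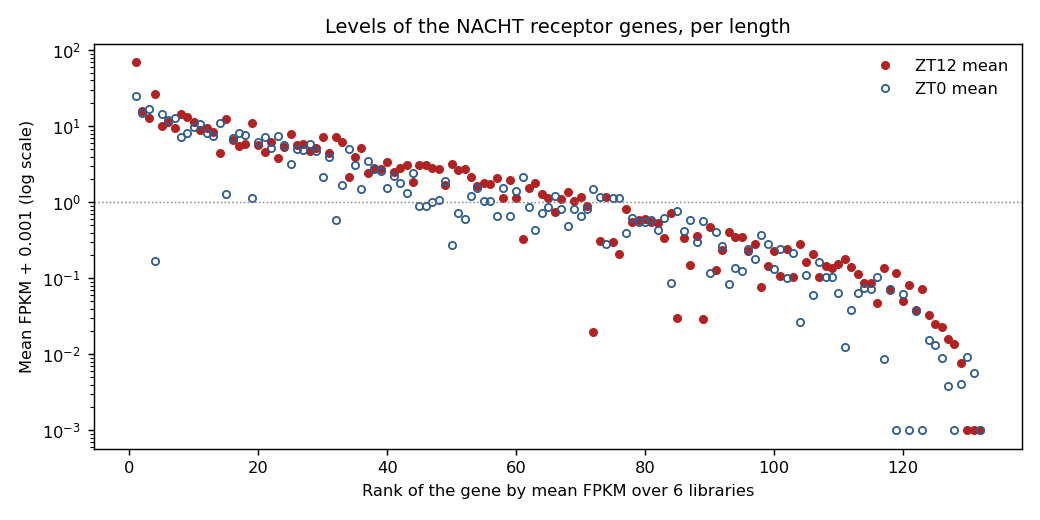
Mean FPKM (log scale, with 0.001 added) of the 132 NACHT receptor genes at ZT12 (filled) and ZT0 (open), ranked by the mean over 6 libraries. The dotted line marks 1 FPKM, which 65 genes exceed. ZJQ022614, at rank 4, is the abundant gene with the widest gap between the times, 26.4 against 0.169 FPKM.

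Expression differed strongly between libraries of the same time. The highest library of a time was a median of 4.05 times the lowest over the 95 tested members (0.1 CPM added, the time with the larger ratio taken), against 2.22 times over all genes tested. Members of like level also had the wider ratio, except the lowest. At a mean of 2 to 10 CPM the median ratio was 3.99 in 37 members and 2.53 in 4723 coding models, and at 10 to 100 CPM it was 2.77 in 29 members and 1.72 in 6176 coding models. Below 2 CPM the values were 4.56 and 4.43. Standard errors of the members were correspondingly wider, with a median of 0.66 against 0.42 log2 units over all genes tested.

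In 9 of the 132 genes (6.82%) the transcript was under 0.1 CPM in at least 1 library and above 5 CPM in another, which 2.22% of all genes with a count did. In 6 of the 9 this happened between libraries of the same time, as it did in 1.51% of all genes with a count. ZJQ022639, the second most abundant member per length, had 0.0409, 22.14 and 28.24 CPM in ZT12 libraries 1, 2 and 3, against 16.11, 28.07 and 7.356 CPM in ZT0 libraries 1, 2 and 3. It was near 0 in ZT12 library 1 and plainly expressed in the other 5. ZJQ010000 had 0.0409, 0.19 and 0.0457 CPM at ZT12 against 12.17, 0 and 13.27 CPM at ZT0. ZT0 library 2 was thus like the ZT12 libraries, and the gene did not pass the filter on low counts. Without that library it was tested and called lower (log2 fold change -7.07, edgeR adjusted p = 0.00716), and it was the only member called lower under any alternative run.

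Other genes were high in a single library, or near 0 in some libraries of a time and expressed in the rest. ZJQ008824 had 1.555, 1.805 and 0 CPM at ZT12 against 0.5554, 0.0854 and 23.76 CPM at ZT0, so its log2 fold change of -2.83 rested on ZT0 library 3 and was 1.87 without it. ZJQ015292, not tested, stayed at or under 0.19 CPM in 5 libraries and had 8.35 CPM in ZT0 library 3. ZJQ022046 had 6.587, 21.52 and 10.65 CPM at ZT12 against 12.47, 0.0854 and 0.2982 CPM at ZT0, where library 1 alone was like ZT12. ZJQ021326 had 2.455, 0.6651 and 6.397 CPM at ZT12 against 0.0505, 6.664 and 10.19 CPM at ZT0. The libraries that were near 0 were not the same from gene to gene.

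**Figure D4:**
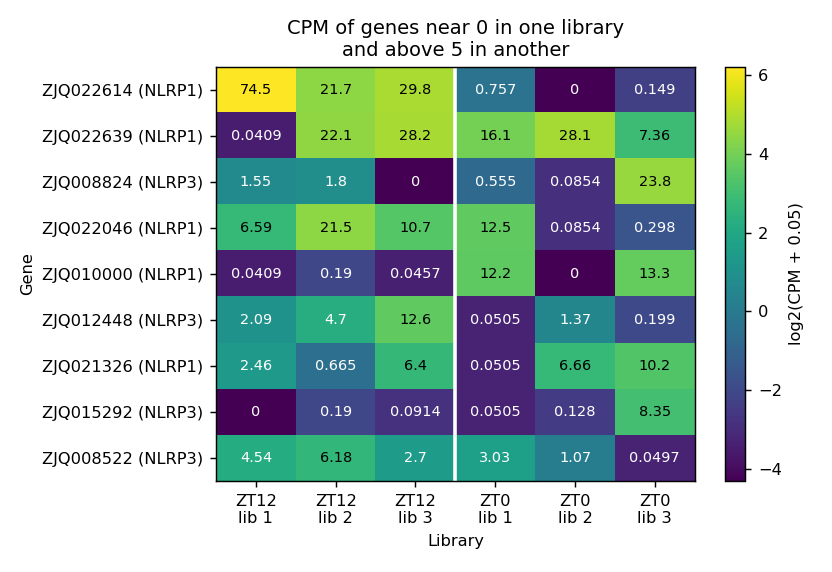
CPM by library (numbers in the cells, colour on a log2 scale with 0.05 added) of the 9 NACHT receptor genes under 0.1 CPM in 1 library and above 5 CPM in another. ZT12 libraries are left of the white line and ZT0 libraries right of it. Only ZJQ022614 and ZJQ012448 have all ZT12 libraries above all ZT0 libraries.

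In some stretches of close identifiers the tested members all lay on 1 side of 0. Identifiers were joined into a run where neighbours differed by at most 50, a rule chosen after the values were seen, and 13 runs held 4 or more members (91 in all). Whether identifier numbers follow genome position is not stated in the sources used here, and near-identical copies within a run could share reads, which was not checked, so the members of a run are not independent. In the run ZJQ001601 to ZJQ001656 (9 members, 7 of them of the NLRP3 type) all 7 tested genes were above 0, with log2 fold changes of 1.33 to 3.43 and a median of 1.92. Of these 7, 0 passed edgeR's test, 6 had an unadjusted p under 0.05, and DESeq2 called 1 (ZJQ001654). All 5 tested genes of the run ZJQ008520 to ZJQ008556, of the NLRP3 type, were also above 0 (0.33 to 1.7), but the times overlapped in each. The run ZJQ014563 to ZJQ014597 went the other way, with its 3 tested genes, all described above, at -4.27 to -2.16. Of these, ZJQ014597 at -4.27 was tested through ZT0 alone, so its direction adds nothing to that of the run. The largest run, ZJQ022563 to ZJQ022715, held ZJQ022614 and 15 other members. Its 10 tested genes split 5 above and 5 below 0 with a median of 0.05, so the rise of ZJQ022614 was not shared along the run. The nearest tested member by number after it, ZJQ022626, had a log2 fold change of -1.8 (edgeR adjusted p = 0.726).

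**Figure D5:**
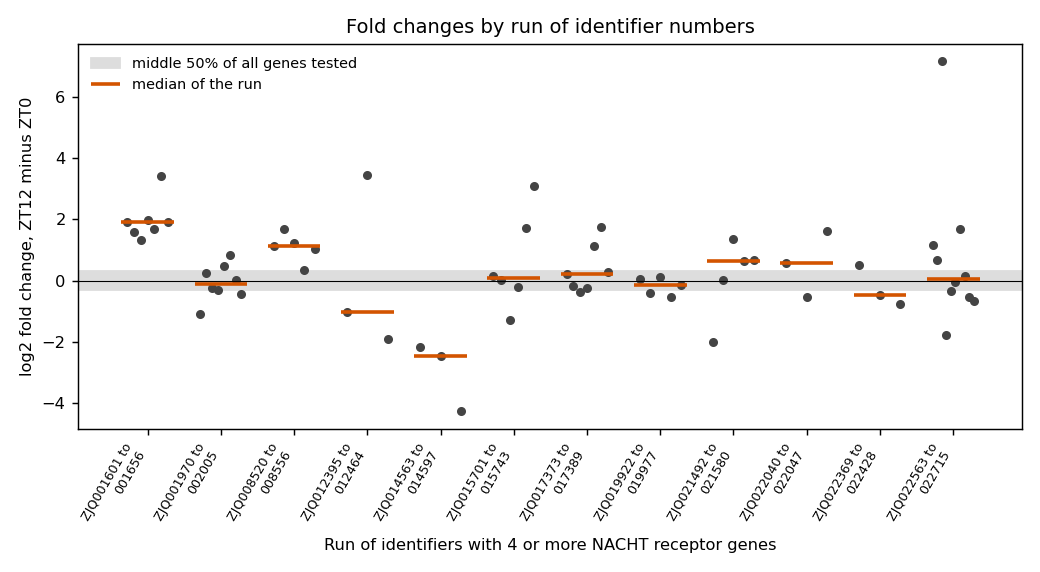
Log2 fold change (ZT12 minus ZT0) of tested NACHT receptor genes in 12 runs of identifiers, in order of the identifier within each run. A thirteenth run had no tested gene. Orange bars are medians of the runs and the grey band holds the middle 50% of all genes tested (-0.3 to 0.33). The first run lies wholly above the band (1.33 to 3.43) and the run ZJQ014563 to ZJQ014597 wholly below it (-4.27 to -2.16). The gene at -4.27, ZJQ014597, was tested through ZT0 alone.

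Genes that act with these receptors in mammals gave no call by edgeR. By edgeR 0 of 17 tested adapters and kinases (24 in all), 0 of 24 tested inflammasome and output genes (38 in all) and 0 of 4 chaperones passed. An unadjusted p under 0.05 was found for 2, 1 and 0 of them, all higher. Median log2 fold changes were -0.02, 0.2 and 0.13. DESeq2 called 1 of these genes, Xiap (ZJQ023496, adjusted p = 0.0117), a ubiquitin ligase that in mammals links NOD2 and RIPK2 to NF-kB. It had 1.636, 1.663 and 0.6397 CPM at ZT12 against 0.0505, 0.0427 and 0.0497 CPM at ZT0 (1 read in each ZT0 library), a ratio of 27.8 between summed levels (95% exact interval 9.23 to 138, counting error only; edgeR adjusted p = 0.18). Xiap reached the filter's 0.46 CPM at ZT12 only, so it was tested through the time where it was high.

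BIRC2 (ZJQ022792), an inhibitor of apoptosis protein of the same family as XIAP, had 17.35, 25.89 and 23.9 CPM at ZT12 against 15.95, 12.47 and 7.654 CPM at ZT0, without overlap (log2 fold change 0.89, edgeR adjusted p = 0.613). A second BIRC2 gene, ZJQ022789, was at -0.49 and the NF-kB precursor gene NFKB1 (ZJQ010390) at 1.09, and neither passed (edgeR adjusted p = 0.717 and 0.742). Among the inflammasome and output genes 2 genes of the caspase platform apaf1 were at -0.47 (ZJQ000070) and 0.48 (ZJQ012783), and the deubiquitinase gene brcc3 (ZJQ014291) at -0.48, with edgeR adjusted p from 0.687 to 0.703. The chaperone SGT1, which keeps NOD-like receptors ready to signal in mammals and plants, had 2 genes at -0.42 (ZJQ018265) and 0.19 (ZJQ018270). HSP90, its partner (hsp90ab1, ZJQ001125), had 663.5, 491.8 and 524.8 CPM at ZT12 against 604.4, 481.2 and 518 CPM at ZT0 (log2 fold change 0.07, edgeR adjusted p = 0.963), and chordc1 (ZJQ022945) was at 0.19. No model was described as ASC, and the 3 IL17B models had at most 1 read in a library.

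Beside the NACHT members stood 2 other receptor families of the same table, given as values without a test of the difference. Of 43 tested NLRC-type genes 0 rose and 1 fell by edgeR (3 and 2 by DESeq2), 25.6% had an unadjusted p under 0.05, and the median ratio between libraries of a time was 4. Of 65 tested Toll-like receptor genes 0 passed by edgeR or DESeq2, 7.69% had an unadjusted p under 0.05 (5 genes, all higher), and that ratio was 2.77. Log2 fold changes were above 0 in 62.8% of the tested NLRC-type genes (median 0.37) and 72.3% of the tested Toll-like receptor genes (median 0.3). For the tested NACHT members the share was 60% (median 0.13). Near-zero and plainly expressed libraries as defined above occurred in 3 of 55 NLRC-type genes and 0 of 146 Toll-like receptor genes, against 9 of the 132 NACHT genes.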

How the data were processed

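Per the labels' protocols, RNA was extracted with TRIzol and libraries were made with a VAHTS universal kit, while the submitters' processing notes name the tools fastp, HISAT2 and HTSeq. The sources used here do not give versions, genome build, annotation or strand setting, so near-identical copies, overlapping genes and antisense models could share reads. The authors deposited whole-number counts per gene, not normalized, and FPKM values. In 109307 values with at least 10 reads, 100% of the deposited FPKM values equalled counts over library total and 1 length per gene within 0.1%.

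Counts were tested with edgeR 4.0.16 (R 4.3.3): filterByExpr (minimum count 10, minimum total 15), TMM, glmQLFit with legacy = FALSE, ZT12 minus ZT0, Benjamini-Hochberg over 18456 genes, threshold 0.05. All adjusted p-values are edgeR's unless another tool is named. SE is the absolute log2 fold change over the square root of F. Alternatives used DESeq2 1.42.0, limma 3.58.1 and edgeR settings. The fit was also run on counts simulated from its own dispersions with independent libraries, which cannot show that the model suits these genes.

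Named members were the called genes, the 12 with the smallest p, the 8 most abundant by FPKM, up to 8 tested of descriptions with at most 3 members, and up to 10 under 0.1 CPM in 1 library and above 5 CPM in another. Pathway genes named were the 4 with the smallest p of each list, of which 1 is not reported here. Other names were chosen after their values were seen. Members and lists were chosen with earlier results of these data known. No gene positions or sequences are analysed here.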

Additional observations from a re-analysis of the deposited data

How the results depend on the processing

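The 28 named tested members gave 392 values under the alternatives, of which 377 kept their direction. Over all genes edgeR called 24, against 264 with DESeq2, 10 with legacy = TRUE, 0 with limma-voom (1078 at an unadjusted p under 0.05), 13 with a replicate block and 0 to 24 without single libraries (0 without ZT12 library 1 or 3, 15 without ZT0 library 3). NACHT members called were 1, against 5 with DESeq2, 0 with legacy = TRUE or limma-voom (16 and 17 at an unadjusted p under 0.05), and 0 to 2 without single libraries. The call left without ZT0 library 2 was ZJQ010000, not ZJQ022614. Pathway genes called were 0, and 1 with DESeq2. The median log2 fold change of tested members, 0.13, was 0.25 with plain library sizes, which also moved the median of all genes to 0.12, and 0.03 to 0.31 without single libraries. Causes were not tested. The sign turned for ZJQ021326 with limma-voom (0.28), for ZJQ022639 with plain library sizes (0.07) and without single libraries (-0.66 to 0.56), for ZJQ001983 (-1.3 to 0.15), ZJQ001999 (-0.61 to 1.53) and ZJQ008824 (-3.43 to 1.87) without single libraries, and for ZJQ021873 with DESeq2 (0.01), limma-trend (0.03), plain sizes (0.08), legacy = TRUE or the block (0 each) and without single libraries (-0.43 to 0.67). Deviations of same-numbered libraries had correlations of -0.0483, 0.0166 and -0.000962, against -0.12 to 0.131 for libraries of unlike number. The sources used here do not say what the numbers stand for, and these correlations cannot settle whether the numbers pair libraries. The block kept the call of ZJQ022614 (adjusted p = 0.0141). Joining identifiers at a gap of 20 or 100, alternatives chosen after seeing the data, gave medians of 1.8 and 1.92 for the run with ZJQ001654. With 3 libraries a time and SEs near 0.66, low members could differ without passing.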
